A study of Homo sapiens with 8 samples.

Results

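Mucins are heavily O-glycosylated proteins of epithelial surfaces, and 10 of their genes were followed here through the loss of FOXA1, a forkhead transcription factor, in SKBR3 cells, an ERBB2-amplified human breast cancer line. A gene was included when its symbol in the deposited table was MUC1, MUC2, MUC4, MUC5AC, MUC5B, MUC13, MUC15, MUC16, MUC19 or MUC20, which gave 10 of the 30434 genes in the table. RNA sequencing covered 4 control libraries, with the genotype given as WT, and 4 FOXA1 knockdown libraries. The knockdown cells were a stable line made with lentiviruses carrying short hairpin RNAs against FOXA1, and both groups grew in DMEM with 10% fetal bovine serum. The labels do not say whether the controls carried a control vector, which hairpin each knockdown library carried, or whether the replicates were separate cultures. The p-values therefore measure the spread between these libraries, which may be technical. In such bulk samples, fewer cells that express a gene and less RNA per cell cannot be told apart.

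The members fall into a pair of classes. Membrane mucins (MUC1, MUC4, MUC13, MUC15, MUC16 and MUC20, 6 genes) cross the plasma membrane once, carry a long glycosylated outer part, and can be shed from the cell. Secreted gel-forming mucins (MUC2, MUC5AC, MUC5B and MUC19, 4 genes) form disulphide-linked polymers that give mucus its structure. The core of a mucin is a domain of repeated sequence rich in serine and threonine, on which polypeptide GalNAc transferases start O-glycan chains that other enzymes extend. MUC1 is a membrane mucin of ductal breast epithelium and many breast carcinomas, and its shed part is the CA15-3 serum marker, while MUC16 carries the CA125 marker.

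The repeat that defines the MUC1 protein is shown here. Whether it affects the counting of MUC1 reads was not tested. In the GENCODE 29 model of MUC1 on GRCh38 its unit of 60 bases occurred in 19 exact copies along the longest transcript, which has 4170 bases. The first copy lies in exon 2 at chr1:155191821-155191880 on the minus strand, and 81.7% of its bases are G or C.

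MUC1 repeat unit: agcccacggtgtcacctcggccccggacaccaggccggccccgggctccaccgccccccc

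Of the windows of 101 bases (the read length) in that transcript, 32.3% occurred more than once within it. This share was 18.9% for MUC5B, 16.3% for MUC20, 13.8% for MUC2, 13.0% for MUC4 and 10.4% for MUC5AC. It was 0.332% for MUC19 and 0.311% for MUC16, and no window was repeated in MUC13 or MUC15. For MUC20, 57.9% of the windows were also found in transcripts of other genes, most often those of the overlapping gene MUC20-OT1. No MUC1 window was found in a transcript of another gene.

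The promoters of the members whose counts fell the furthest, MUC1 and MUC19, are shown as the 250 bases before the RefSeq transcript start (GRCh38.p14). Capitals mark matches on either strand to a forkhead motif (TGTTTAC, or the same with G as the base before the last), to the TATA box (TATAAA) and to the GC box (GGGCGG, with overlapping matches counted separately). The MUC1 window is chr1:155192916-155193165 on the minus strand and the MUC19 window is chr12:40393144-40393393 on the plus strand.

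MUC1 promoter: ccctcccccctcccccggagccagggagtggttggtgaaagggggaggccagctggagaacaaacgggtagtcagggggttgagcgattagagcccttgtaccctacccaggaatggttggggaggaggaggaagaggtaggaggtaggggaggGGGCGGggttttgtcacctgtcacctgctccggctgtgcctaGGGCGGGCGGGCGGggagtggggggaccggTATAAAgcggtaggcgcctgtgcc

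MUC19 promoter: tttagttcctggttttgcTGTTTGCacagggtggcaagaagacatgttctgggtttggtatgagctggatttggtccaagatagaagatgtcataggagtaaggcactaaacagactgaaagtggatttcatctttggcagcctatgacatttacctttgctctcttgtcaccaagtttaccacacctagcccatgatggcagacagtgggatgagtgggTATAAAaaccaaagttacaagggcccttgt

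The MUC1 window was 66% G or C, with 4 GC-box matches and a TATA-box match 24 bases before the start, and held no forkhead match. The MUC19 window was 44.4% G or C, with a TATA-box match 30 bases before the start and 1 forkhead match. RefSeq gave 8 windows for 6 members (MUC1, MUC2, MUC4, MUC13, MUC16 and MUC19). A forkhead match stood in 1 of these 8 windows, against 6.09% of all 35116 promoter windows of this length. TATA-box matches stood in 3 of 8, against 10.7%, and GC-box matches in 4 of 8, against 42.6%. The 2 MUC1 windows overlap almost entirely and hold the same matches, so by gene the TATA box was found in 2 of 6 and the GC box in 3 of 6. These are matches to letters, not measured binding sites.

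Library totals ran from 19087878 to 23786684 counts, at which 3 counts equal 0.123 to 0.153 CPM (counts scaled to 1000000 per library after TMM adjustment). The targeted gene FOXA1 was at 191.4 ± 1.65 CPM in control and 3.95 ± 0.340 in knockdown (SD, n = 4 each), 2.06% of control. Control replicate 3 stood apart on the second principal component, which carried 1.84% of the variance against 90.9% for the first, the axis of the groups. The breast luminal markers KRT7, KRT8, KRT18, KRT19, EPCAM, CLDN3 and CLDN4 were all detected, with a summed level of 11757.7 to 13140.5 CPM in control and 10635 to 11572.9 in knockdown. Of these 7 markers, 2 were called lower and 4 higher, so the sum hides opposite changes. KRT7 fell from 2199 to 636 CPM and KRT19 from 2642 to 722. The 4 called higher were KRT8 (4513 to 5612), KRT18 (2309 to 3452), EPCAM (179 to 226) and CLDN4 (454 to 480). Stromal, leukocyte and endothelial markers summed to 32.7 to 34.4 CPM in control and 28.4 to 30.8 in knockdown, and 7 of 13 passed the filter on low counts (4 lower, 2 higher). Intestinal and gastric epithelial markers summed to 1.68 to 2.27 CPM in control and 0.915 to 1.32 in knockdown, with 1 of 10 tested and called lower. The part of these markers in the mucin results was not tested.

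Of the 10 mucin genes, 5 had enough counts to be tested: MUC1, MUC15, MUC16, MUC19 and MUC20. A gene was called when edgeR's quasi-likelihood test gave an adjusted p under 0.05. MUC1, MUC15, MUC19 and MUC20 were called lower in knockdown, 4 of 5, and none was called higher; MUC16 was not called. The other 5, MUC2, MUC4, MUC5AC, MUC5B and MUC13, had at most 9 counts in any library and are given by their counts. Among all 16430 tested genes 77.1% were called, 37.7% lower and 39.4% higher. CPM ranges that did not overlap between the groups were found for 3 of the 5 tested mucins (MUC1, MUC19 and MUC20), against 72.0% of all tested genes. More than 2-fold lower were 2 of them, MUC1 and MUC19, against 13.4% of tested genes. MUC19 passed the filter through its control libraries alone, with 24 to 36 counts there and 1 or 2 in knockdown. Its place among the lower and non-overlapping mucins is therefore partly set by the filter. These shares set the scale: a call in either direction was the common outcome in this data set, and the sizes of the changes differ between the members more than the calls do.

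MUC1, whose cytoplasmic tail binds signalling proteins and whose glycosylated outer part covers the apical cell surface, had the highest level per exon length of the 10 genes in control and fell to a few percent of it in the knockdown. The gene (ENSG00000185499.16) lies on chromosome 1, 155185824 to 155192916, minus strand. MUC1 was at 36.2, 30.9, 38.5 and 32.0 CPM in control replicates 1 to 4, from 792, 681, 812 and 744 counts. In knockdown replicates 1 to 4 it was at 0.679, 0.859, 0.458 and 0.924 CPM, from 16, 21, 9 and 20 counts. Every knockdown library lay far below every control library. The means were 34.4 ± 3.57 and 0.730 ± 0.209 CPM (SD, n = 4 each), 2.12% of control. The fitted log2 fold change was −5.53 (SE 0.231, edgeR adjusted p = 1.31e-20), a level 46.2-fold lower, and the exact two-sided permutation p was 0.0286, the smallest that 4 against 4 libraries allow. MUC1 ranked 208 among the falls of all tested genes. Its exons overlap those of the uncharacterised gene AL713999.1 on the same strand by 48 bases, and that gene had a mean of 4.25 counts.

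**Figure D1:**
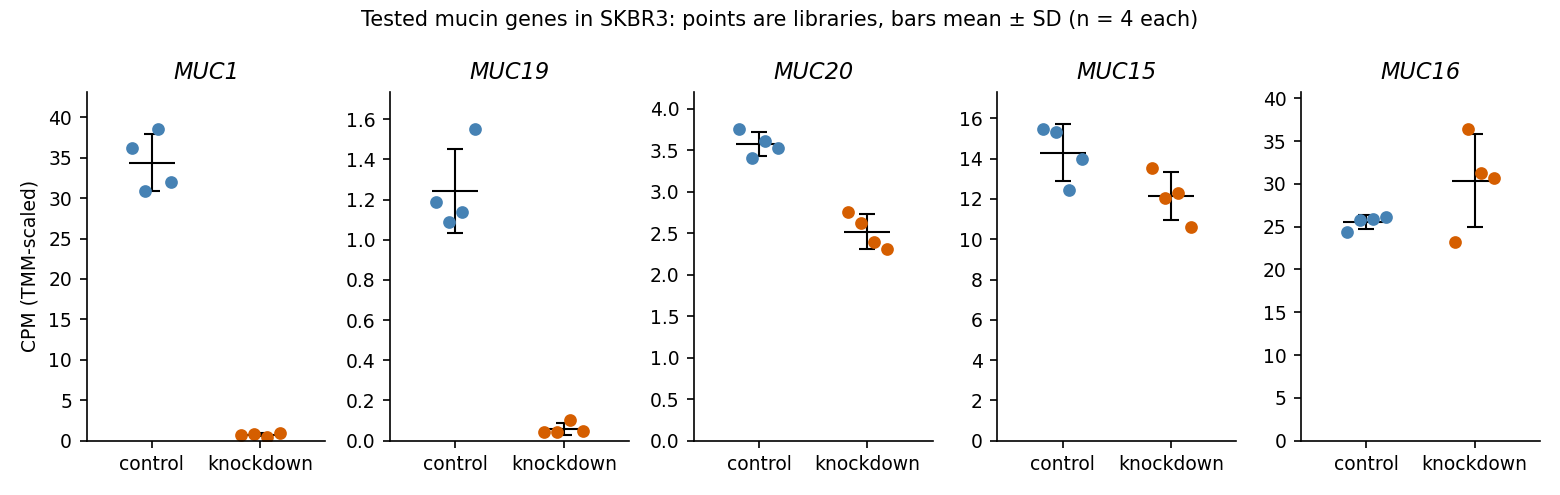
Level (TMM-scaled CPM, linear axes from 0) of the 5 tested mucin genes in the 4 control and 4 FOXA1 knockdown libraries, as points with the mean and SD. The groups are apart for MUC1, MUC19 and MUC20 and overlap for MUC15 and MUC16, where knockdown replicate 1, at 23.3 CPM, is below the controls and the other 3 are above them.

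The other tested membrane mucins differed between the groups by less than MUC1 did. MUC20, a mucin known to bind the MET receptor (ENSG00000176945.17, chromosome 3, 195720882 to 195741123, plus strand), had 82, 75, 76 and 82 counts in control and 65, 64, 47 and 50 in knockdown. The groups did not overlap. Its level was 3.57 ± 0.146 CPM in control and 2.52 ± 0.206 in knockdown (SD, n = 4 each), 70.6% of control, with a log2 fold change of −0.50 (SE 0.0649, edgeR adjusted p = 0.00123; exact permutation p = 0.0286). This value is uncertain, because 1820 bases of its exons overlap the non-coding gene MUC20-OT1 on the same strand, which had 1031 to 1248 counts in each library. MUC20-OT1 was at 49.4 CPM in control and 52.4 in knockdown and was not called (log2 fold change 0.08, edgeR adjusted p = 0.104), and its value had the opposite sign to that of MUC20. The pseudogene copy MUC20P1 had 1 to 7 counts in each library.

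MUC15, a small membrane mucin (ENSG00000169550.14, chromosome 11, 26559033 to 26572233, minus strand, inside the oppositely oriented gene ANO3), had 338, 338, 262 and 325 counts in control and 319, 295, 242 and 230 in knockdown. In 3 of 4 knockdown libraries its CPM was below that of every control library. It was at 14.3 ± 1.41 CPM in control and 12.1 ± 1.19 in knockdown (SD, n = 4 each), 84.9% of control. The log2 fold change was −0.24 (SE 0.102, edgeR adjusted p = 0.0118), and the exact permutation p was 0.0571. The call rested on the scaling and on single libraries: with upper-quartile scaling the adjusted p was 0.0526, with library size alone 0.103, and without knockdown replicate 4 it was 0.0633. ANO3 had at most 2 counts in any library.

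MUC16, a very large membrane mucin (ENSG00000181143.15, chromosome 19, 8848844 to 8981342, minus strand), was at 24.3, 25.8, 25.8 and 26.1 CPM in control, from 532, 569, 545 and 607 counts. In knockdown it was at 23.3, 36.4, 31.2 and 30.7 CPM, from 548, 889, 614 and 664 counts. Replicates 2, 3 and 4 of the knockdown lay above every control library and replicate 1 below every one. The means were 25.5 ± 0.809 and 30.4 ± 5.40 CPM (SD, n = 4 each), 119% of control, a log2 fold change of 0.25 (SE 0.136, edgeR adjusted p = 0.105; exact permutation p = 0.143). Without knockdown replicate 1 the log2 fold change was 0.36 and the adjusted p 1.4e-05, and without knockdown replicate 2 they were 0.15 and 0.142. With all 8 libraries DESeq2 gave an adjusted p of 0.0161, scaling by library size alone 0.0456, and testing all genes with no filter 0.00118.

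**Figure D2:**
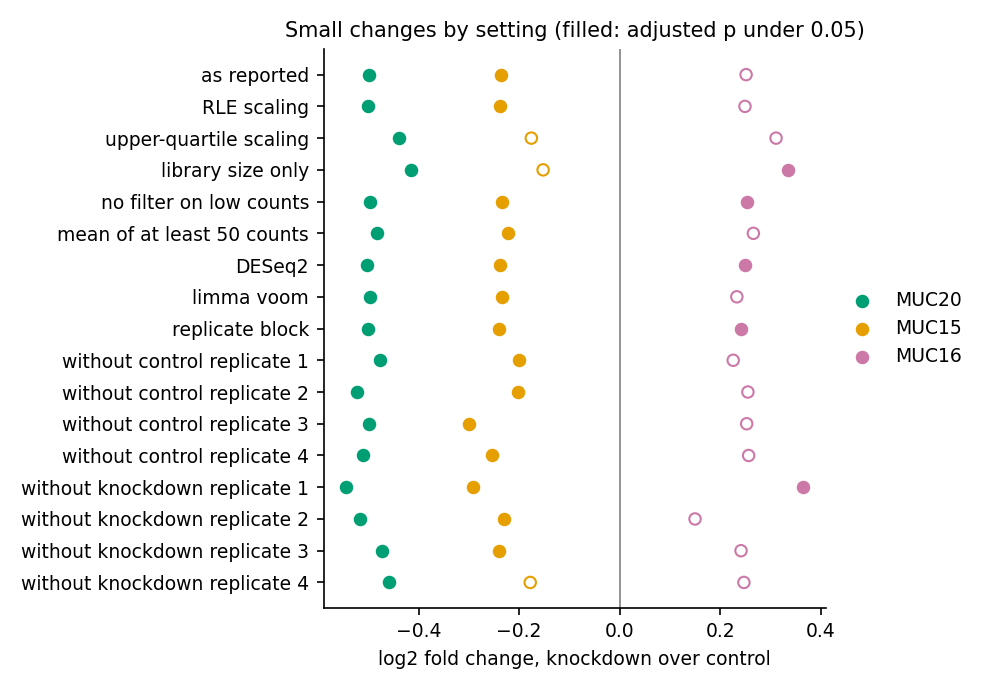
Log2 fold change, knockdown over control, of MUC20, MUC15 and MUC16 as reported and under each of 16 processing alternatives (filled points, adjusted p under 0.05; open points, at or above it). MUC20 was called under each of them, from −0.54 to −0.41, while the calls of MUC15 and MUC16 changed with the setting and neither changed sign.

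Membrane mucins MUC4 and MUC13 were close to undetected. MUC4, known to form a complex with ERBB2 at the cell surface (chromosome 3, 195746765 to 195812277, minus strand), had 4, 2, 3 and 4 counts in control and 7, 5, 2 and 5 in knockdown. MUC13, a mucin of intestinal epithelium (chromosome 3, 124905442 to 124953819, minus strand), had 4, 0, 3 and 1 counts in control and 0 in each knockdown library. Counts of 0 allow up to 3 counts, 0.123 to 0.153 CPM, in each library, and 3 of the 4 control libraries were within that limit.

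Among the secreted mucins MUC19 was the one detected in the control cells above a few counts. MUC19 (ENSG00000205592.15, chromosome 12, 40393395 to 40570832, plus strand), a gel-forming mucin, had 26, 24, 24 and 36 counts in control and 1, 1, 2 and 1 in knockdown, with no overlap. The level fell from 1.24 ± 0.210 CPM to 0.0578 ± 0.0294 (SD, n = 4 each). The summed counts were 110 and 5, a control-to-knockdown ratio of 22.3 after scaling (95% exact counting interval 9.26 to 69.9, which covers counting error only). The fitted log2 fold change was −4.34 (SE 0.271, edgeR adjusted p = 1.92e-10), which depends on the prior count at such low values, and MUC19 ranked 342 among the falls.

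The gel-forming mucins MUC2, MUC5AC and MUC5B lie beside one another on chromosome 11 (1074875 to 1110511, 1157953 to 1201138 and 1223066 to 1262172, all on the plus strand). MUC5AC, a gel-forming mucin of airway and stomach, had 0, 1, 1 and 1 counts in control and 9, 4, 3 and 4 in knockdown. All 4 knockdown libraries had more counts than any control library, at a level too low for the filter. With all genes tested and no filter, MUC5AC was called higher (log2 fold change 2.53, edgeR adjusted p = 0.00397) and MUC13 lower (−4.10, adjusted p = 0.0101). MUC2, the main intestinal mucin, had 1, 1, 1 and 3 counts in control and 1, 0, 2 and 0 in knockdown. MUC5B, a mucin of airway glands, had 0 counts in each control library and 0, 0, 1 and 1 in knockdown.

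Levels can be compared between genes per length of exon, as RPKM (CPM per kilobase of the gene's exons). Among the 5 tested genes the order in control was MUC1 (7.29 ± 0.758), MUC15 (4.02 ± 0.398), MUC20 (0.840 ± 0.0344), MUC16 (0.582 ± 0.0185) and MUC19 (0.0421 ± 0.0071; RPKM, SD, n = 4 each), with no overlap between neighbours in that order. Among the same 5 in knockdown, MUC15 was first (3.41 ± 0.336), then MUC16 (0.693 ± 0.123), MUC20 (0.593 ± 0.0485), MUC1 (0.155 ± 0.0443) and MUC19 (0.00196 ± 0.000995). The ranges of MUC16 and MUC20 overlapped there, 0.531 to 0.830 and 0.544 to 0.649 RPKM. MUC1 made up 56.8% ± 3.67 of the summed RPKM of the 10 genes in control and 3.20% ± 1.04 in knockdown. MUC15 went from 31.4% ± 3.58 to 69.8% ± 3.2 while its own level was 84.9% of control. MUC20 went from 6.56% to 12.1% and MUC16 from 4.56% to 14.3%. The level, share and place of MUC20 in both orders are uncertain, because its exons overlap those of MUC20-OT1. The summed level of the 10 genes was 12.8 ± 0.663 RPKM in control and 4.88 ± 0.313 in knockdown. Summed without length, it went from 79.4 ± 2.64 to 46.3 ± 4.70 CPM, 58.4% of control (exact permutation p = 0.0286). MUC1 alone went from 34.4 to 0.730 CPM, so the sum and its p largely repeat the MUC1 result. They do not show a fall shared by the 10 genes.

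**Figure D3:**
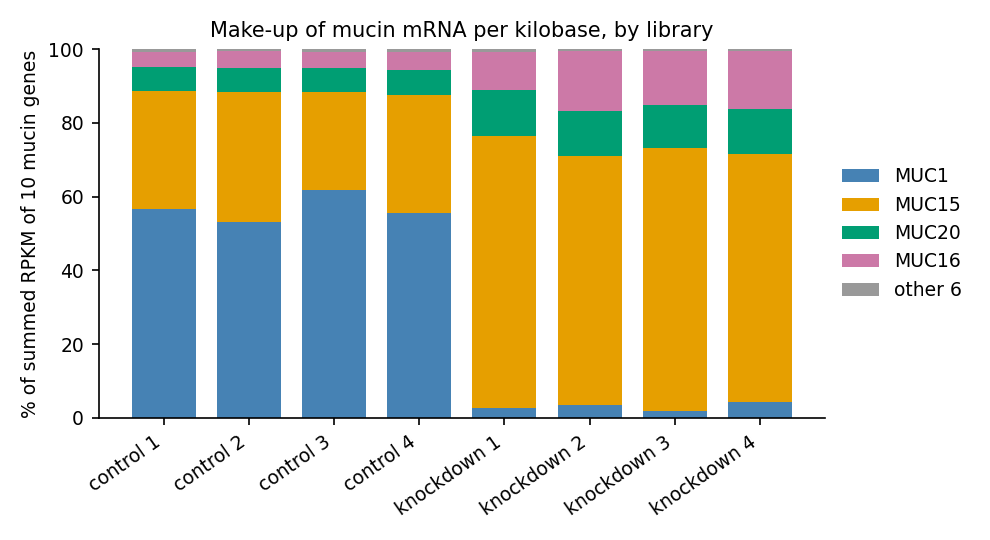
Share (%) of the summed RPKM of the 10 mucin genes taken by MUC1, MUC15, MUC20, MUC16 and the other 6 together, with 1 bar for each of the 8 libraries. MUC1 is the largest share in each control library, with a mean of 56.8%, and MUC15 in each knockdown library, with a mean of 69.8%.

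The genes around each member were examined as the 5 nearest tested genes on each side by gene start (the lower coordinate of the gene), with the 10 mucins left out. For scale, 37.7% of all tested genes were called lower and 39.4% higher. Around MUC1, 8 of 10 neighbours within 58.4 kb were called lower, 1 higher and 1 not called, with a median log2 fold change of −0.55 against 0.02 for all tested genes. The largest fall among them was that of TRIM46, a gene of neuronal microtubule organisation whose start is 12.0 kb from that of MUC1, from 4.49 to 0.390 CPM (log2 fold change −3.47). SLC50A1, a sugar transporter, rose by 0.12. MUC1 itself lay beyond all 10, at −5.53. Around MUC2, MUC5AC and MUC5B, which share the same 10 neighbours, 8 were lower and 1 higher, with a median of −0.81. Around MUC19, 3 were lower and 4 higher, with a median of 0.004, and among them LRRK2, a kinase gene 196.7 kb away, fell by 3.89 and CNTN1, a neuronal adhesion gene 299 kb away, fell by 2.69. MUC4 and MUC20 shared 10 neighbours, of which 2 were lower and none higher (median −0.02). APOD, an apolipoprotein gene, fell by 5.50, and a row named SDHAP2 was at a mean of 0.923 CPM in control and at 0 in each knockdown library. Another of these neighbours is MUC20-OT1, whose exons overlap those of MUC20. Neighbours of MUC13 (5 lower, 2 higher), MUC15 (5 lower, 5 higher) and MUC16 (3 lower, 5 higher) had medians of −0.24, 0.13 and 0.16. The furthest neighbour was 1295 kb away for MUC13, 6515 kb for MUC15, 564 kb for MUC16 and 2077 kb for MUC19. These sets are therefore less local than the neighbours of MUC1.

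**Figure D4:**
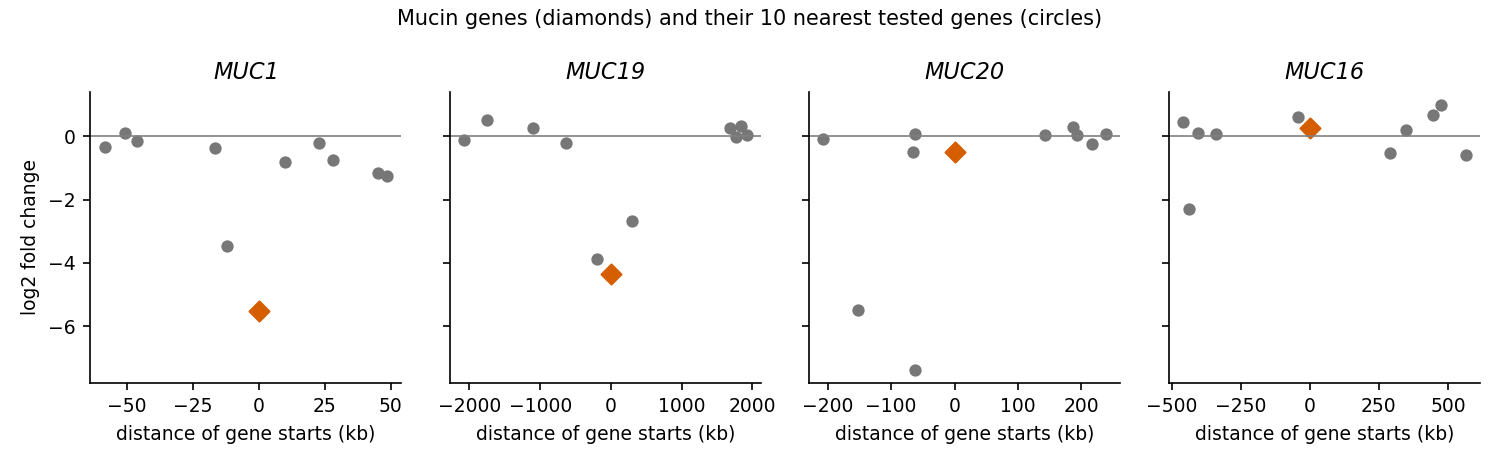
Log2 fold change of MUC1, MUC19, MUC20 and MUC16 (diamonds) and of the 10 nearest tested genes of each (circles), against the distance between gene starts in kb, on axes that differ in width. MUC1 at −5.53 and MUC19 at −4.34 lie below all of their neighbours, and MUC20 and MUC16 do not.

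The genes whose pattern over the 8 libraries was nearest to that of MUC1 and MUC16, the 2 tested mucins with the highest mean CPM, were found by Euclidean distance of log2(CPM + 0.1) after centring each gene. For MUC1 these were PLXNB3 (distance 0.291), RASD2 (0.490) and DNAJA4 (0.509), against a median distance of 7.73 over all tested genes. PLXNB3, a semaphorin receptor, went from 37.0 to 0.905 CPM, RASD2 from 21.2 to 0.399 and the co-chaperone DNAJA4 from 44.4 to 1.01. For MUC16 they were ENSG00000238035 (0.200), ENSG00000287826 (0.271) and SMG1P3 (0.281), against a median of 1.05. These distances are descriptions, without a test.

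Of 15 other mucins and mucin-like genes 13 were in the table and 6 were tested, of which 2 were called lower, 3 higher and 1 not called (median log2 fold change 1.42). Over all tested genes the shares were 37.7% lower and 39.4% higher. MUC3A, a membrane mucin of the intestine, had 57, 52, 48 and 43 counts in control and 384, 397, 259 and 360 in knockdown. The groups were far apart, opposite in direction to MUC1. Its level rose from 2.27 ± 0.315 to 15.6 ± 1.62 CPM (a log2 fold change of 2.78; SD over 4 libraries a group), but the value is uncertain, because MUC3B is a near-identical copy that was not analysed here and whose reads may be counted under MUC3A. PODXL, podocalyxin, a sialomucin, rose from 8.50 to 157.1 CPM (4.21). PARM1, named after its values were seen, rose from 0.126 to 3.64 CPM. OVGP1, oviductin, fell from 5.24 to 1.66 CPM (−1.66). MUCL1, a small mucin of breast and skin glands, had 32, 19, 46 and 42 counts in control and 1, 0, 0 and 0 in knockdown, a ratio of 140.7 in summed scaled counts (95% exact counting interval 24.8 to 5596). CD164 was at 253 and 262 CPM and was not called.

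Enzymes that start O-glycans changed in both directions. Of 20 GalNAc transferase genes 15 were tested, of which 7 were lower, 6 higher and 2 not called (median log2 fold change −0.34). Calls in both directions were also the pattern of the whole table, with 37.7% of tested genes lower and 39.4% higher. GALNT17 fell from 6.83 to 0.150 CPM (−5.50), GALNT7 from 69.4 to 2.94 (−4.56) and GALNT18 from 55.5 to 9.28 (−2.58). GALNT2 rose from 2.43 to 42.9 CPM (4.14), GALNT12 from 2.96 to 5.47 (0.88) and GALNT6 from 184 to 258 (0.48). GALNT13 had 0 counts in every control library and 12 to 19 in knockdown, at least 5.02-fold higher against 3 counts per library.

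Of 15 genes for chain extension 9 were tested, with 5 lower, 2 higher and 2 not called (median −1.27). Over all tested genes the shares were 37.7% lower and 39.4% higher. ST3GAL1, the sialyltransferase that caps the core-1 chain, fell from 70.6 to 1.56 CPM (log2 fold change −5.51). ST6GALNAC4, another sialyltransferase, fell from 45.9 to 6.41 CPM (−2.84) and GCNT1, which makes core-2 branches, from 3.91 to 0.796 (−2.27). ST3GAL2, a second enzyme of the ST3GAL1 kind, rose from 4.30 to 13.6 CPM (1.67), and GCNT4 from 0 counts in each control library to 2.35 CPM, at least 17.2-fold higher against 3 counts per library.

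The genes of mucin secretion, which include the transcription factor SPDEF and secreted partners of mucins, mostly fell. Of 23 listed genes 21 had a row and 15 were tested, with 13 lower, 1 higher and 1 not called, and a median log2 fold change of −2.07. Over all tested genes 37.7% were lower, 39.4% were higher and the median was 0.02. The list was chosen with earlier results of these data known, so this comparison is a description and not a test. SPDEF, a driver of goblet cell differentiation, fell from 200.1 to 0.397 CPM (log2 fold change −8.94). ZG16B, a secreted lectin-like protein, fell from 19.0 to 0.261 CPM (−6.12), and AGR2, a disulphide isomerase that acts on gel-forming mucins in the endoplasmic reticulum, from 19.4 to 0.428 (−5.49). TFF3, a trefoil peptide secreted with mucus, went from 14 to 18 counts in each control library to 0 in each knockdown library, at least 5.12-fold lower against 3 counts per library. FCGBP, a mucus protein named after its values were seen, was the gene called higher, at 0.281 and 1.39 CPM. Among 16 partners and sheddases of membrane mucins 13 were tested, with 2 lower, 7 higher and 4 not called (median 0.16). ERBB2, the receptor tyrosine kinase amplified in this line, fell by 2.45 on the log2 scale. SRC, a kinase that phosphorylates the MUC1 tail, rose from 53.6 to 158 CPM (1.56), and ADAM17, a MUC1 sheddase, from 40.5 to 68.3 (0.75).

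**Figure D5:**
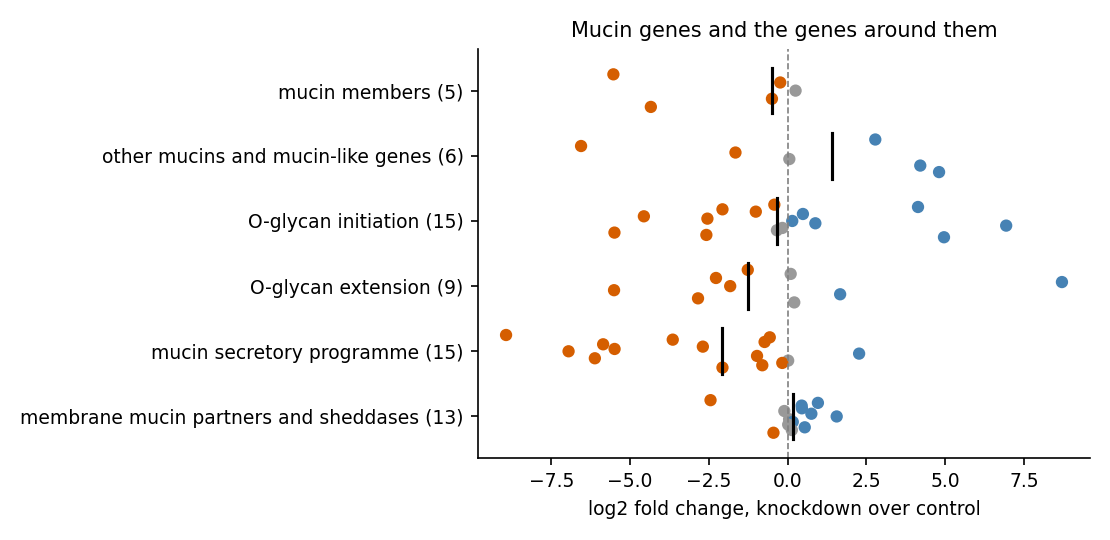
Log2 fold change, knockdown over control, of each tested gene in 6 lists, with the number tested in brackets (orange, called lower; blue, called higher; grey, not called; black bar, list median; dashed line, median of all tested genes at 0.02). The secretory genes lie mostly to the left of that line, with a median of −2.07, and the O-glycan initiation genes lie on both sides of it. The lists were chosen with earlier results of these data known.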

How the data were processed

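RNA was extracted with Trizol and sequenced on a NextSeq550 as paired-end reads of 101 bp after an mRNA protocol, per the labels' protocols. The authors deposited whole-number read counts per gene, not normalized. The submitters' processing notes name hg38, FastQC, Salmon 1.9 and DESeq2 3.16 without giving their roles. Whether the whole numbers are rounded estimates is therefore not known, which bears on values of a few counts, their counting intervals and the split between overlapping genes. Strand use is not given in the sources used here. Every count column matched 1 sample by name.

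The 10 members and the gene lists were chosen with earlier results of these data known. Genes passing edgeR's filterByExpr (defaults, minimum 10 counts and total 15) numbered 16430 of 30434. Counts were TMM-scaled (factors 0.966 to 1.04) and tested with edgeR 4.0.16 in R 4.3.3 (robust quasi-likelihood test, two-sided, Benjamini-Hochberg over all tested genes, threshold 0.05; prior count 0.125; biological coefficient of variation 4.56%). Standard errors come from log2 CPM of the replicates with 0.5 added to each count. Exact permutation tests of log2(CPM + the mean CPM of 3 counts) used all divisions of the libraries into 4 and 4.

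RPKM used exon-union lengths of GENCODE 29, which matched 96.5% of gene IDs; promoter sequences are RefSeq's (GRCh38.p14), matched by symbol for 6 members. All members are named. From each list came up to 3 genes per direction with the largest fold change among those with a mean of at least 50 counts, plus genes with a group at the floor of 3 counts; some genes that this covers are not reported here. On simulated counts for 16430 genes, 186 of 200 changed genes (93%) were recovered, with 11 false calls. The 93% applies only to the sizes of change and the spread that were simulated. Recovery of changes as small as those of MUC15, MUC16 and MUC20 was not tested, so it gives no recovery rate for them. In the data 77.1% of tested genes were called, and recovery at such a share was not tested. The alternatives changed the scaling (RLE, upper quartile, or none beyond library size), the filter (none, or a mean of at least 50 counts) or the tool (DESeq2 1.42.0, limma 3.58.1 voom), added a replicate block, or left out each library in turn.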

Additional observations from a re-analysis of the deposited data

Results flagged for a closer look

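In 6 of 54 groups of 4 libraries examined, 1 library lay apart from the others by Dixon's ratio (the gap to the nearest value over the whole range); chance gives about 2.7. MUC19 in knockdown had a ratio of 0.913, from 2 counts in replicate 3 against 1 in each of the others. MUCL1 in knockdown had a ratio of 1.0, from 1 count in replicate 1 against 0 in each of the others. SPDEF in knockdown had a ratio of 0.875, from 16 counts in replicate 1 against 6 to 8. These 3 rest on few counts. MUC3A in knockdown had a ratio of 0.886, with 13.2 CPM in replicate 3 against 16.2 to 16.6. GCNT1 in control had a ratio of 0.836, with 4.49 CPM in replicate 2 against 3.66 to 3.79. ZG16B in control had a ratio of 0.83, with 17.9 CPM in replicate 4 against 19.3 to 19.5.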

How the results depend on the processing

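Of the named genes, 27 were followed over the 16 alternatives. None of their fold changes reversed, and 422 of 430 values kept their side of the threshold. Other named genes, such as PARM1, FCGBP, GALNT13, GCNT4, TFF3 and CD164, were not followed in this way. MUC1 ranged from −5.65 to −5.38, MUC19 from −4.68 to −4.04 and MUC20 from −0.54 to −0.41. MUC15 lost its call with upper-quartile scaling (−0.18) and library size alone (−0.15), and ranged from −0.30 to −0.18 with 1 library left out. MUC16 gained a call with library size alone (0.34), no filter (0.25), DESeq2 (0.25) and the replicate block (0.24, adjusted p = 0.00798), and ranged from 0.15 to 0.36 with 1 library left out. Members called lower numbered 3 to 5; members called higher numbered 1 with library size alone, DESeq2 and the replicate block, 2 with no filter, and 0 to 1 with 1 library left out. Higher calls among other mucins came to 5 with no filter, and lower calls to 1 at a mean of at least 50 counts. Higher calls in chain extension came to 4 with no filter and 1 at that mean; in mucin secretion they came to 2 with library size alone, 2 with no filter and 0 at that mean. The cause was not tested, beyond the change in which genes are tested. MUC19 and MUCL1 have no value at a mean of at least 50 counts. With longest-transcript lengths, chosen after seeing the data, MUC1 was 56.0% and 3.14% of the summed RPKM and MUC15 30.9% and 68.2%. Replicate numbers did not pair the libraries (correlations −0.0309 to 0.0561; 1 of 4 controls correlated best with its own number). Scaling moved the median of all tested genes by at most 0.0832. Depth limits the 5 members below the filter, where 3 counts equal 0.123 to 0.153 CPM.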
